A study of Mus musculus with 20 samples.

Results

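The bone morphogenetic proteins (BMPs) and activins are secreted dimers of the transforming growth factor-β superfamily, and 10 genes named for them were followed here: Bmp1, Bmp2, Bmp3, Bmp4, Bmp5, Bmp6, Bmp7, Inhba, Inhbb and Gdf10. They were taken by gene symbol from the 24421 genes counted in each library, and all 10 were present in each of the 20 libraries. RNA came from neocortex and hippocampus of male and female mice aged 3 months, and each genotype gave 5 libraries per region. The cTKO mice were homozygous for floxed APP, APLP1 and APLP2 and carried Camk2a-Cre, which acts after birth in excitatory neurons of the forebrain, so that interneurons, glia, vessels and meninges kept the 3 genes. Controls were littermates with the floxed genes and no Cre, which the labels call wild type. The neocortex and the hippocampus were extracted with different RNA kits, so region and kit cannot be told apart, and no source used here says whether the same library number stands for the same mouse.

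A BMP or activin dimer binds a pair of type II and a pair of type I receptor kinases on the cell surface. The type I receptor then phosphorylates SMAD proteins, SMAD1, SMAD5 and SMAD9 for most BMPs and SMAD2 and SMAD3 for activins, which enter the nucleus with SMAD4 and control target genes such as those of the Id family. Outside the cell, antagonists such as noggin, chordin and follistatin hold the ligands back. In the adult brain, BMPs are known for keeping neural stem cells of the hippocampus quiescent, meninges and choroid plexus are known sources of BMPs, and activin A is known for its induction by neuronal activity and for its action on excitatory synapses.

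The coding ends show which of the 10 genes belong to the ligand family. In this family the mature protein is the carboxy-terminal part of a longer precursor, and it closes with cysteines of the cystine knot, the fold that gives these ligands their shape. The last 30 coding bases of 6 members, stop codon included, are given 5′ to 3′ on the coding strand, with the 2 cysteine codons that precede the stop in capitals. Bmp3 and Gdf10 are shown as close relatives whose genotype fold changes had opposite signs in the hippocampus, Inhba for the activin subunits, Bmp2 and Bmp7 for the 2 subfamilies of classical BMPs, and Bmp1 because it lacks the feature.
Bmp3: atgacagtcgactccTGTgctTGTagataa
Gdf10: atgtccgtagagaccTGTgccTGTcggtaa
Inhba: atgattgtggaggagTGTggcTGCtcctag
Bmp2: atggttgtggagggcTGCgggTGTcgttag
Bmp7: atggtggtccgggccTGTggcTGCcactag
Bmp1: ttccaggacacactccacagcaggaagtga
These are bases of the GRCm38 assembly (mm10) in the last coding exon of the principal transcript in GENCODE M21, at chr5:98879900-98879929 on the plus strand for Bmp3, chr14:33934484-33934513 on the plus strand for Gdf10 and chr13:16027100-16027129 on the plus strand for Inhba. Bmp2 is at chr2:133561686-133561715 on the plus strand, Bmp7 at chr2:172870137-172870166 on the minus strand and Bmp1 at chr14:70475115-70475144 on the minus strand. The cysteine codons were found at the same places, the fourth and the second before the stop, in 9 of the 10 members, and Bmp1 was the exception. Bmp1 is an astacin metalloprotease, the procollagen C-proteinase, which also cuts the BMP antagonist chordin, and it is treated here as a member by name and not as a ligand. Over the last 330 coding bases, Bmp5 and Bmp6 were 79.7% identical, Bmp2 and Bmp4 76.1%, Bmp3 and Gdf10 74.9%, and Inhba and Inhbb 68.2%.

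The libraries held between 12169474 and 25331954 counts. Levels are given as CPM, counts scaled to a common library size with the TMM method of edgeR. A floor of 3 counts corresponded to 0.123 to 0.247 CPM, depending on the library, and covers counting error only. The counts of App, Aplp1 and Aplp2 were lower in each cTKO library than in each control library of the same region, App in the neocortex, for example, at 331 to 407 CPM against 1501 to 1811 CPM. A gene is termed called at a false discovery rate (FDR) under 0.05 over all genes tested. All 6 hippocampal markers were called higher in the hippocampus in each genotype, beside 26.3% of all genes in control and 25.8% in cTKO mice. Of 6 neocortical markers, 4 were called lower there in each genotype, beside 24.8% and 23.8% of all genes, and 1 was called higher in cTKO mice. All 7 striatal markers were also called lower in the hippocampus in each genotype. In 2 libraries, 8 markers of embryonic tissue (embryonic globins, posterior Hox genes and Afp) summed to 292 CPM in cTKO neocortex library 5 and 189 CPM in cTKO hippocampus library 4, against at most 1.48 CPM in the other 18. In each of these 2 libraries, 3 of the 8 markers had no counts, so the sums rest on the others. Results that rest on these 2 libraries are given with and without them.

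Between the genotypes, Bmp3 was the member that changed. It was higher in cTKO mice in both regions, and no other member had an FDR below 0.05 by the quasi-likelihood method of edgeR in either region. In the neocortex 1 of 10 members was called, where 0.188% of the 13843 genes tested were called, and in the hippocampus 1 of 10, where 0.489% of 13702 were called. The authors had already reported Bmp3 as higher in both regions from these libraries. The members were chosen with this known, so these shares are no test of the family. At an unadjusted p of 0.05, 2 members differed in the neocortex (Bmp3 and Inhba) beside 10.4% of all genes, and 4 in the hippocampus (Bmp3, Gdf10, Bmp7 and Inhba) beside 12.0% of all genes. The median log2 fold change of the 10 members was 0.0021 for the neocortex and -0.10 for the hippocampus (0.0090 and 0.0049 over all genes), with 5 and 4 members above 0. All 10 passed the filter of a CPM above 1 in at least 5 libraries. Since whole tissue was used, fewer cells of a type and less RNA per cell cannot be told apart in any of these values.

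**Figure D1:**
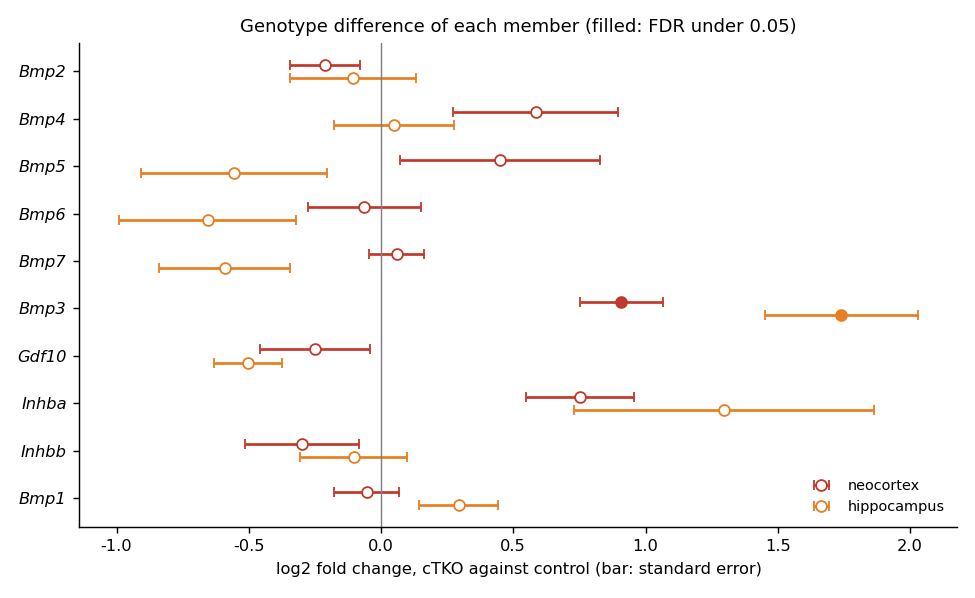
Log2 fold change (x axis) of each of the 10 members (y axis) between cTKO and control mice in the neocortex and the hippocampus, from edgeR's quasi-likelihood fit. Bars are standard errors and filled points passed an FDR of 0.05: only Bmp3 is filled, at 0.91 in the neocortex and 1.74 in the hippocampus.

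Bmp3, on chromosome 5, encodes a BMP known for holding back the signalling of other BMPs rather than for starting it. In the 5 control libraries of the neocortex it stood at 17.3, 18.5, 18.4, 13.6 and 13.8 CPM, and in the 5 cTKO libraries at 27.0, 30.3, 29.3, 43.8 and 21.9 CPM. The lowest cTKO library, number 5, was above the highest control, so the groups did not overlap. The means were 16.3 ± 2.45 CPM and 30.5 ± 8.15 CPM (SD, n = 5), and the log2 fold change was 0.91 (standard error 0.16, FDR 0.0362 with edgeR). Non-overlapping groups were found for 2.36% of all genes in the neocortex and, among the members, for Bmp3 alone.

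In the hippocampus, Bmp3 was at 4.37, 2.32, 3.90, 2.80 and 3.40 CPM in controls and at 13.0, 11.7, 18.1, 5.88 and 7.33 CPM in cTKO libraries. Here too the groups did not overlap, and cTKO library 4 was the lowest of its group. The means were 3.36 ± 0.82 and 11.2 ± 4.86 CPM, and the log2 fold change was 1.74 (standard error 0.29, FDR 0.0204 with edgeR). A two-sided exact permutation test on log2 CPM gave p = 0.00794 for Bmp3 in each region, the smallest that 5 against 5 allows. It was 1 of 20 such tests, one for each member and region, whose p-values are not adjusted. In each region, the cTKO library with the embryonic markers had the lowest Bmp3 of its group. Without it, neocortical Bmp3 had a log2 fold change of 0.996 (FDR 0.0061 with edgeR; standard error 0.14) and hippocampal Bmp3 one of 1.89 (FDR 0.0075 with edgeR).

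By the quasi-likelihood test, the Bmp3 call was close to its threshold. In the neocortex it was lost when any 1 of control libraries 1 to 5 or cTKO libraries 1 and 2 was left out, with FDRs from 0.0656 to 0.124, and in the hippocampus when any 1 of control libraries 1 to 5 or cTKO library 2 was left out, with FDRs from 0.0503 to 0.0786. In the fits that lost the call, calls over all genes were fewer too. They numbered 7 to 15 in the neocortex, against 26 with all libraries, and 15 to 39 in the hippocampus, against 67. Over all 10 fits per region with 1 library left out, whether the call was kept or lost, the log2 fold change was 0.74 to 0.996 for neocortex and 1.499 to 1.89 for hippocampus. With all libraries kept, edgeR's exact test gave Bmp3 an FDR of 6.29e-05 in the neocortex and 3.85e-06 in the hippocampus. DESeq2 gave 3.67e-05 and 6.48e-07. Of 9 alternatives that kept all libraries, 7 called Bmp3 in the neocortex and 9 in the hippocampus.

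**Figure D2:**
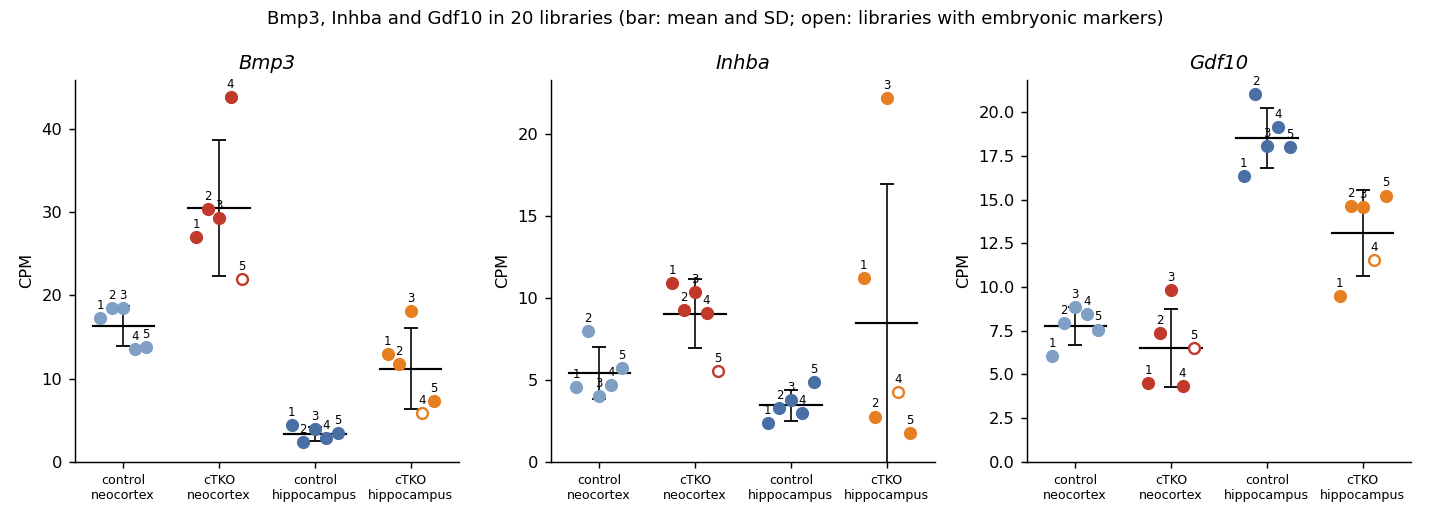
CPM (y axis) of Bmp3, Inhba and Gdf10 in each of the 20 libraries, by genotype and region (x axis). Points are libraries with their number, horizontal bars are means, vertical bars are SDs and open points are the 2 libraries with embryonic markers. Bmp3 is separated by genotype in both regions, Inhba is spread from 1.78 to 22.2 CPM in cTKO hippocampus, and Gdf10 is separated by genotype in the hippocampus.

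Gdf10, on chromosome 14, is also called BMP3b and is the member closest to Bmp3 in sequence. In the hippocampus it lay on the other side: 16.4, 21.04, 18.1, 19.2 and 18.0 CPM in controls and 9.47, 14.6, 14.6, 11.6 and 15.2 CPM in cTKO libraries. Every cTKO library was below every control library, which 3.13% of all genes showed in one direction or the other in the hippocampus. The log2 fold change was -0.50 (standard error 0.13), which did not pass over all genes (FDR 0.129 with edgeR), while the exact permutation test gave p = 0.00794. It was -0.47 without cTKO library 4 (FDR 0.184). In the neocortex, Gdf10 was at 6.03 to 8.89 CPM in controls and 4.35 to 9.82 CPM in cTKO libraries, with overlap, and the log2 fold change was -0.25 (standard error 0.21, FDR 0.728 with edgeR).

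Inhba encodes the βA subunit of the activins and inhibins, and activin A is its homodimer. In the neocortex, control libraries 1 to 5 were at 4.55, 8.004, 4.03, 4.69 and 5.70 CPM and cTKO libraries at 10.9, 9.25, 10.4, 9.07 and 5.55 CPM. Of the cTKO libraries, 4 were above all controls, and library 5, the one with embryonic markers, was within the control range. The log2 fold change was 0.75 (standard error 0.20, FDR 0.187 with edgeR; exact permutation p = 0.0238). Without cTKO library 5 it was 0.87 (standard error 0.17) and passed (FDR 0.0319 with edgeR), at a setting in which 133 of 13763 genes passed.

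In the hippocampus, Inhba was at 2.36, 3.31, 3.77, 2.95 and 4.86 CPM in controls. The cTKO libraries were far apart, at 11.2, 2.76, 22.2, 4.26 and 1.78 CPM. Libraries 1 and 3 stood above all controls, and libraries 2, 4 and 5 did not. The log2 fold change of 1.296 had a standard error of 0.57 (FDR 0.385 with edgeR; exact permutation p = 0.357), and without library 3 it was 0.54 (FDR 0.696). Libraries 1 and 3 also had the most Bmp3 in this group.

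Inhbb encodes the βB subunit, which forms activin B. It was at 4.69 to 7.46 CPM in control and 3.93 to 8.81 CPM in cTKO neocortex, with 4 of 5 cTKO libraries below all controls and library 3 above them. In the hippocampus it was at 5.04 to 9.90 CPM and 5.40 to 9.53 CPM. Its log2 fold changes were -0.30 (standard error 0.22) and -0.10 (standard error 0.20), and neither passed (FDR 0.681 and 0.903 with edgeR). Without cTKO library 3 the neocortical value was -0.56 (FDR 0.114).

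Bmp2 and Bmp4, close relatives that signal through the BMP type I receptors, were low and passed over all genes in neither region. Bmp2 was at 4.76, 5.14, 6.01, 4.43 and 5.21 CPM in control neocortex and 4.20, 4.601, 4.78, 4.35 and 3.92 CPM in cTKO neocortex. The groups overlapped, with a log2 fold change of -0.21 (FDR 0.614 with edgeR, standard error 0.13; exact permutation p = 0.0397). In the hippocampus its log2 fold change was -0.11 (standard error 0.24). Bmp4 was at 2.34, 3.40, 3.79, 3.52 and 4.93 CPM in control neocortex and 4.20, 4.50, 6.48, 2.39 and 9.26 CPM in cTKO neocortex, where the highest value was that of library 5. Its log2 fold change was 0.58 (standard error 0.31, FDR 0.543 with edgeR), and 0.30 without that library. In the hippocampus it was 0.05 (standard error 0.23).

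Bmp5, Bmp6 and Bmp7 form the subfamily with the most alike coding ends. In the hippocampus the fold changes of all 3 were negative, and none passed over all genes. Bmp7 was at 27.1, 18.2, 22.6, 14.9 and 8.37 CPM in controls and 9.35, 11.5, 15.6, 12.4 and 11.8 CPM in cTKO libraries. The lowest library of both groups was control library 5, and the log2 fold change was -0.59 (standard error 0.25, FDR 0.369 with edgeR; exact permutation p = 0.143). Bmp6 was at 17.8, 13.1, 15.03, 10.5 and 3.82 CPM in controls and 4.26, 9.98, 10.1, 6.60 and 7.33 CPM in cTKO libraries, with control library 5 again the lowest. Its log2 fold change was -0.66 (standard error 0.33, FDR 0.467 with edgeR). Bmp5, the lowest of the 3, was at 4.47, 3.56, 3.22, 1.996 and 1.46 CPM in controls and 1.19, 1.40, 2.06, 3.73 and 1.69 CPM in cTKO libraries. Its log2 fold change of -0.55 (standard error 0.35, FDR 0.590 with edgeR) was -0.90 without cTKO library 4 (FDR 0.277), the library with its highest cTKO value.

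In the neocortex, the same 3 genes had log2 fold changes of 0.06 for Bmp7 (standard error 0.10), -0.06 for Bmp6 (standard error 0.21) and 0.45 for Bmp5 (standard error 0.38). For Bmp5, cTKO library 5 was at 5.70 CPM and the other 4 between 1.70 and 1.91 CPM, so that the change was -0.04 without it. Exons of Bmp6 overlap those of Txndc5 on the opposite strand, which was counted at 53.4 to 72.4 CPM, and exons of Bmp4 and Bmp5 overlap those of Gm15217 and Gm26903. Whether counting used strand is not given in the sources used here, so reads in the overlap of Bmp6 and Txndc5 may have gone to either gene or to neither. Gm15217 was at 0.0502 CPM at most, so few reads of the Bmp4 overlap went to it, though some may have gone to neither gene. Gm26903 was not among the genes counted.

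Among the control hippocampi, Bmp6 and Bmp7 ran from library 1 down through 3, 2 and 4 to 5, and so did the summed level of 8 meningeal fibroblast markers (Dcn, Lum, Col1a1, Col1a2, Slc6a13, Aldh1a2, Foxc1 and Osr1), at 275, 186, 184, 145 and 116 CPM. In cTKO hippocampus the sum was between 106 and 216 CPM, lowest in library 1, which also had the least Bmp5, Bmp6 and Bmp7. The order did not hold at the other end: library 4 had the highest sum and the most Bmp5, but its Bmp6 was the second lowest of the group and its Bmp7, at 12.4 CPM, was below the 15.6 CPM of library 3. None of the 8 markers was called between the genotypes in the hippocampus. At an unadjusted p of 0.05, 1 of 8 was lower, beside 12.0% of all genes in either direction. The 8 markers of choroid plexus, the tissue that makes cerebrospinal fluid, summed to 79.0 to 2737 CPM in control hippocampus, highest in library 3, and to 118 to 609 CPM in cTKO hippocampus. All 8 had negative fold changes there, 4 of them at an unadjusted p of 0.05 (12.0% of all genes in either direction) and none called. No marker of either list was at 0 in a hippocampal library. In the neocortex, the meningeal sum was 64.7 to 101.5 CPM in controls and 92.8 to 249 CPM in cTKO libraries. There 6 of 8 markers were higher at an unadjusted p of 0.05, beside 10.4% of all genes in either direction, and none was called. The highest sum was that of cTKO neocortex library 5, which also had the highest Bmp4 and Bmp5. The part of these cells in the values of Bmp4, Bmp5, Bmp6 and Bmp7 was not tested.

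**Figure D3:**
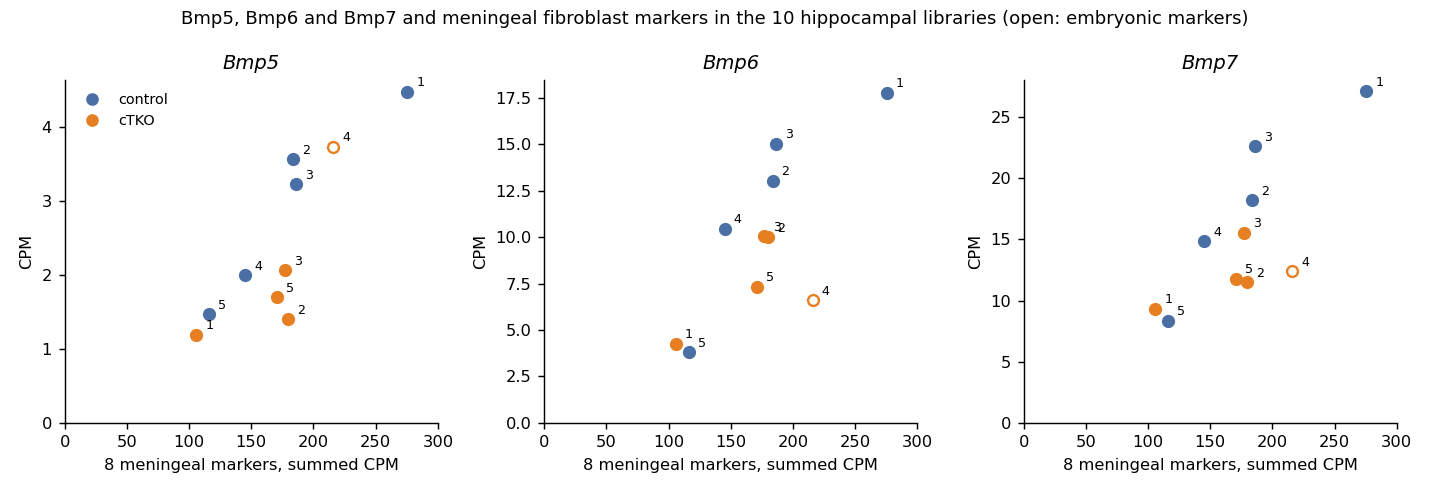
CPM of Bmp5, Bmp6 and Bmp7 (y axes) against the summed CPM of 8 meningeal fibroblast markers (x axes) in the 10 hippocampal libraries, blue for control and orange for cTKO, with library numbers. The open point is cTKO library 4. Control library 1, at 275 CPM of markers, is the highest for all 3 genes, and control library 5 and cTKO library 1 are at the low end of both axes.

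Bmp1, the protease, was the member with the most counts. It was at 53.9 to 79.2 CPM in control and 51.2 to 80.1 CPM in cTKO neocortex, a log2 fold change of -0.05 (standard error 0.12). In the hippocampus it was at 32.9, 37.5, 56.1, 47.0 and 38.4 CPM in controls and 51.3, 58.4, 53.2, 59.1 and 38.0 CPM in cTKO libraries. There the log2 fold change was 0.29 (standard error 0.15, FDR 0.464 with edgeR), and the groups overlapped through control library 3 and cTKO library 5.

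Whether the genotype difference itself differed between the regions was tested as an interaction in one fit of all 20 libraries. That fit, also used between the regions, took the libraries as independent, though both regions came from the same mice. None of the 10 members was called, where 0.0564% of 14192 genes were called, and the FDR of each was 0.9999. At an unadjusted p of 0.05, 2 members differed beside 3.75% of all genes: Bmp3, whose fold change was larger in the hippocampus by 0.84 on the log2 scale (standard error 0.34), and Bmp7, whose fold change was 0.64 lower there (interaction -0.64, standard error 0.29). Without both libraries with embryonic markers the difference for Bmp3 was 0.90 (FDR 0.760 with edgeR).

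Between the regions, Bmp3 and Gdf10 were opposite. In control mice, Bmp3 was lower in the hippocampus than in the neocortex by 2.28 on the log2 scale (log2 fold change -2.28, standard error 0.26, FDR 2.66e-07 with edgeR), at 2.32 to 4.37 CPM against 13.6 to 18.5 CPM. Gdf10 was higher in the hippocampus (log2 fold change 1.26, standard error 0.18, FDR 5.12e-06), at 16.4 to 21.04 CPM against 6.03 to 8.89 CPM. Bmp2 (-0.78, FDR 0.0017) and Bmp1 (-0.67, FDR 6.38e-04) were lower there. These 4 of 10 members compare with 51.1% of 14192 genes called between the regions, and 3 of 10 did not overlap (Bmp1 did) beside 43.7% of all genes.

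In cTKO mice, the regions differed in the same direction for Bmp3 (log2 fold change -1.44, standard error 0.23, FDR 2.68e-05 with edgeR), for Gdf10 (1.02, standard error 0.18, FDR 8.05e-05) and for Bmp2 (-0.66, FDR 0.0060). Bmp7 was lower in the hippocampus (-0.71, standard error 0.20, FDR 0.0064), and its control value was -0.06. Again 4 of 10 members were called beside 49.6% of all genes, and 3 of 10 did not overlap (Bmp2, Bmp3 and Bmp7) beside 28.7%. Inhbb had a log2 fold change of 0.44 (FDR 0.107 with edgeR) and was not called. Without both libraries with embryonic markers, the same 4 members were called in each genotype. The comparisons by genotype and by region use the same libraries, so they are not independent of each other.

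Levels of different genes were compared per kb of exon, taken as the union of all annotated exons of a gene. In control neocortex the order of the mean CPM per kb was Bmp1 at 7.59, Bmp7 at 4.76, Bmp3 at 2.21, Bmp6 at 2.20, Bmp4 at 1.60, Inhbb at 1.501, Gdf10 at 1.49, Bmp2 at 1.44, Inhba at 0.844 and Bmp5 at 0.466. Bmp1 and Bmp7 each stood clear of the next gene over the 5 libraries, and from Bmp3 downwards each gene's range overlapped that of its neighbour. In control hippocampus the order was Bmp1 at 4.78, Bmp7 at 4.54, Gdf10 at 3.56, Bmp6 at 3.08, Bmp4 at 1.89, Inhbb at 1.78, Bmp2 at 0.837, Bmp5 at 0.731, Inhba at 0.540 and Bmp3 at 0.454, and Inhbb and Bmp2 were the only neighbours in this order whose ranges did not overlap. Bmp3 was thus at place 3 of 10 in control neocortex and last in control hippocampus. In cTKO mice it was at place 3 in the neocortex at 4.12 CPM per kb and at place 7 in the hippocampus at 1.51 CPM per kb, where its range overlapped those of its neighbours Inhbb and Inhba. The first and second places, Bmp1 and Bmp7, were the same in all 4 groups. Per kb of the longest transcript instead, Bmp1 was at 12.55 in control neocortex and 7.90 in control hippocampus and stayed first, and Bmp3 was at place 6 in cTKO hippocampus.

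**Figure D4:**
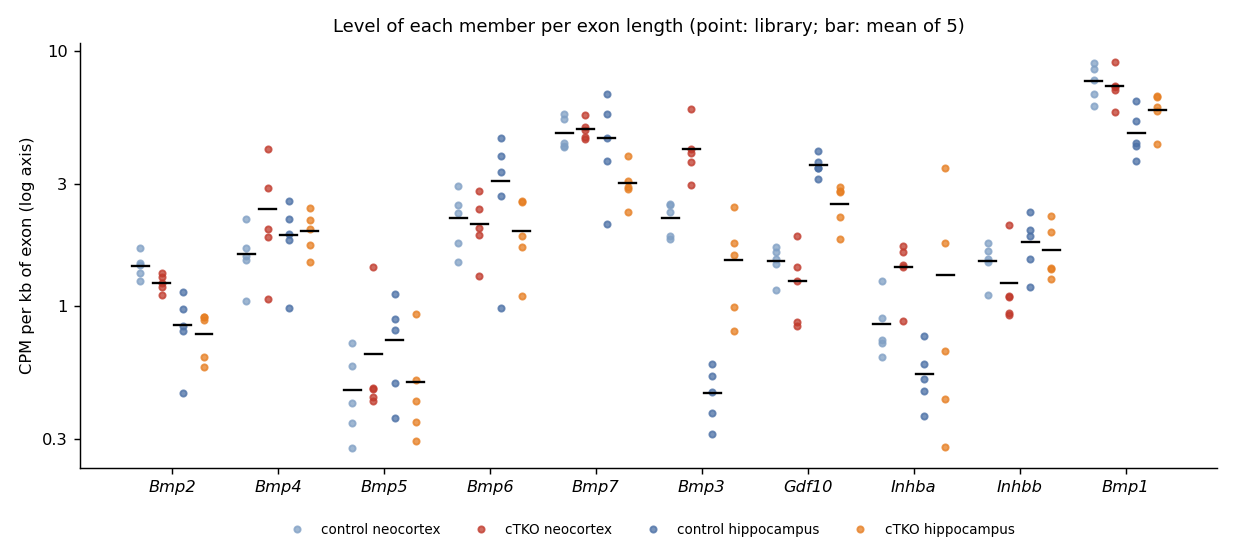
Level of each member in CPM per kb of exon (log axis) in the 4 groups, with a point for each library and a bar for the mean of 5. Bmp1 and Bmp7 are highest in each group, and Bmp3 spans from 0.454 in control hippocampus to 4.12 in cTKO neocortex.

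The genes whose pattern was most like that of Bmp3 were sought by Pearson's r of log2 CPM over the 20 libraries, after the mean of each region was subtracted, among 14191 genes. They were Pcsk5 (r = 0.90), Acvr1 (0.89), Tmeff2 (0.89), Serinc2 (0.87) and Bdnf (0.85). With the mean of each group subtracted, so that genotype was taken out as well, r was between 0.52 and 0.67 for the 5. All 5 were called higher in cTKO hippocampus (FDR 0.0123 to 0.0347 with edgeR) and none in the neocortex (FDR 0.108 to 0.403). Calls were made for 0.489% and 0.188% of all genes. The choice of the 5 left the genotype difference of Bmp3 in, so their hippocampal calls follow in part from that choice. For Inhba, the nearest were Vegfa (r = 0.86), Ifrd1 (0.85), Etv3 (0.82), C2cd4b (0.81) and Mak16 (0.80), and these stayed between 0.78 and 0.84 within groups. None of these 5 was called in either region. The SD of log2 CPM of Inhba was 1.46 in cTKO hippocampus and 0.38 in each other group. The correlations of Inhba within groups thus rest mostly on the cTKO hippocampal libraries. Among the members themselves, Bmp6 and Bmp7 were most alike (r = 0.87, and 0.85 within groups), Bmp3 and Inhba had r = 0.62 (0.56 within groups), and Bmp3 and Gdf10 had r = -0.60 (-0.20 within groups). The points of these correlations are the same 20 libraries and share their depth and dissection.

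Of the genes around the members, 2 receptors and 1 convertase changed, all in the hippocampus. Acvr1 encodes ALK2, a type I receptor for BMPs. It was at 45.4, 42.5, 40.6, 44.3 and 43.6 CPM in control hippocampus and 66.4, 61.3, 88.7, 56.1 and 60.6 CPM in cTKO hippocampus, with no overlap and a log2 fold change of 0.62 (FDR 0.0240 with edgeR; standard error 0.11). Acvr1c encodes ALK7, a type I receptor for activin B, nodal and some GDFs. It was at 23.6, 21.6, 25.4, 21.1 and 22.1 CPM in controls and 63.1, 43.2, 72.4, 51.7 and 41.3 CPM in cTKO libraries, or 1.26 higher on the log2 scale (standard error 0.14, FDR 0.0015 with edgeR). Each cTKO library was thus above each control. Pcsk5 encodes a proprotein convertase that cuts precursors of this superfamily. It was at 15.1 to 18.1 CPM in controls and 21.3 to 32.01 CPM in cTKO libraries (log2 fold change 0.65, standard error 0.11, FDR 0.0257 with edgeR). In the neocortex, the log2 fold changes were 0.27 for Acvr1, 0.43 for Acvr1c and 0.28 for Pcsk5, and none was called (FDR 0.251, 0.411 and 0.399). The interaction was called for none of the 3 (FDR 0.9999 for Acvr1 and Pcsk5 and 0.596 for Acvr1c). Acvr1c was called in all 19 alternatives of the hippocampus and Acvr1 and Pcsk5 in 12 each. The call of Acvr1 was lost without any 1 of control libraries 1 to 5 or cTKO library 2, with FDRs from 0.0512 to 0.0868, and that of Pcsk5 without any 1 of control libraries 1 to 5 or cTKO libraries 1 and 2, with FDRs from 0.0553 to 0.0994.

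**Figure D5:**
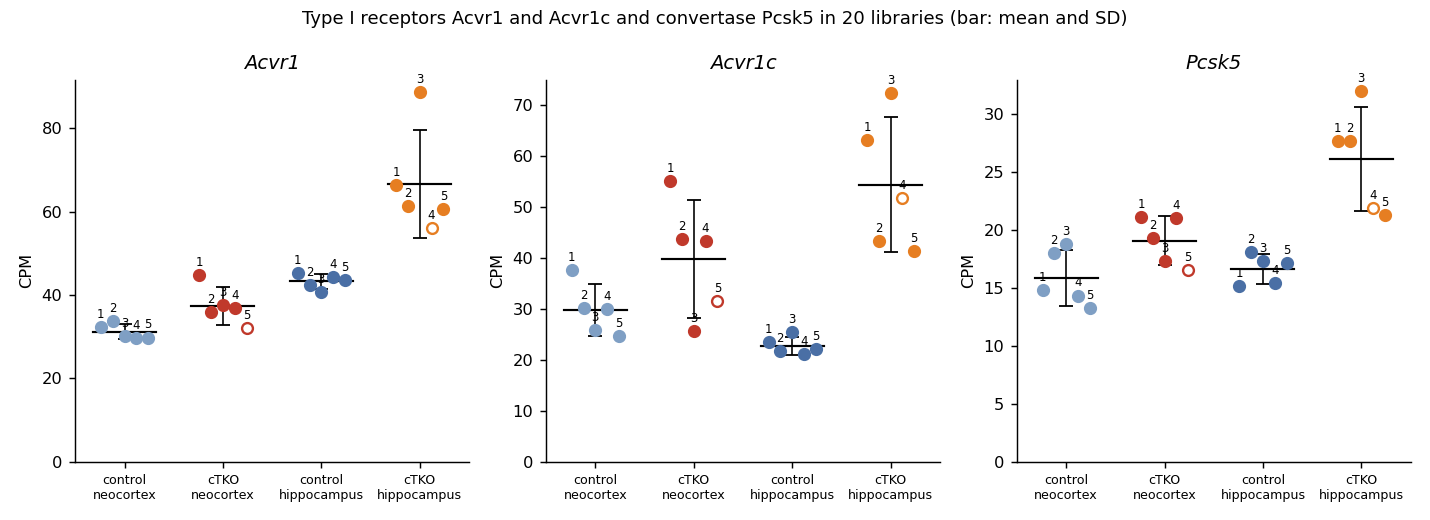
CPM (y axis) of Acvr1, Acvr1c and Pcsk5 in each of the 20 libraries, by genotype and region (x axis), with means, SDs and library numbers. Open points are the 2 libraries with embryonic markers, and in the hippocampus the cTKO libraries of all 3 genes lie above the controls, for Acvr1c at 41.3 to 72.4 CPM against 21.1 to 25.4 CPM.

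The other receptors, antagonists, SMADs and targets were counted list by list. Of 15 receptors and co-receptors tested, the 2 named were called in the hippocampus and 0 in the neocortex (0.489% and 0.188% of all genes), with medians of 0.01 and -0.01 beside 0.0049 and 0.0090 over all genes. At an unadjusted p of 0.05, 3 were higher and 2 lower in the hippocampus, beside 12.0% of all genes in either direction, and 2 were higher in the neocortex, beside 10.4%.

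No secreted antagonist was called. In the neocortex, 3 of the 16 tested were higher at an unadjusted p of 0.05, beside 10.4% of all genes in either direction. In the hippocampus, 2 of 17 were higher and 1 lower, beside 12.0% of all genes, led by Fstl4 (0.42, FDR 0.314). Of the 15 SMADs and modulators none was called, with 11 of 15 above 0 in each region. Smad9 led in the neocortex (0.23, FDR 0.431). Smad3, a SMAD of activin signalling, led in the hippocampus, at means of 88.8 and 135 CPM (log2 fold change 0.60, standard error 0.17, FDR 0.163 with edgeR). Its neocortical means lay the other way, with 126 CPM for the control group and 100 CPM for the cTKO group. The groups overlapped there, since cTKO libraries ranged from 73.7 to 141 CPM and control libraries from 117 to 138 CPM. Smad3 also had the lowest p of this list for the interaction, where no gene of the list was called.

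Of the 12 target genes tested, none was called. Id3, an inhibitor of basic helix-loop-helix factors and a direct BMP target, had the lowest p in both regions. In the neocortex it had a log2 fold change of 0.39 (FDR 0.301 with edgeR; standard error 0.13) and in the hippocampus one of 0.49 (FDR 0.297; standard error 0.18). The median over the 12 was 0.07 for the neocortex and -0.0022 in the hippocampus. Of the 24 other ligands of the superfamily, 5 were expressed highly enough to be tested in the neocortex and 8 in the hippocampus, and none was called. Tgfb1 had the lowest p in the neocortex (0.46, FDR 0.354), and Lefty1, an antagonist of nodal, had the lowest in the hippocampus, at a mean of 9.34 CPM in controls and 7.02 CPM in cTKO libraries (-0.41, FDR 0.163 with edgeR). Among the 6 proteases and processing factors tested, 1 was called in the hippocampus (Pcsk5) and 0 in the neocortex, beside 0.489% and 0.188% of all genes. At an unadjusted p of 0.05, 2 were higher in the hippocampus, beside 12.0% of all genes in either direction. In the neocortex 3 were higher, beside 10.4%. Tll1, a protease of the Bmp1 family, was at a mean of 1.72 CPM in controls and 3.66 CPM in cTKO neocortex without overlap (log2 fold change 1.10, standard error 0.23), and its FDR was 0.0879 with edgeR.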

How the data were processed

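The authors sequenced poly-A RNA as single-end reads, aligned them to mm10 with STAR 2.5.4a, counted them per gene with HTSeq and deposited the raw counts, 1 column per library. The strand setting is not given in the sources used here. The labels gave the groups, and no column of per-sample values was left unused. Genes were kept where 5 or more libraries exceeded 1 CPM, and were tested with the quasi-likelihood test of edgeR 4.0.16 in R 4.3.3 after TMM scaling, within each region by genotype and over all 20 libraries for region and interaction, with Benjamini-Hochberg adjustment over all genes (FDR). Log2 CPM used a prior count of 2. Single values were also tested by exact permutation of log2 CPM. Exon lengths and sequences came from GENCODE M21. The members and gene lists were chosen with earlier results of these data known. Text names all 10 members, the called genes of the lists, the gene of lowest p in each list and the 5 genes most correlated with Bmp3 and with Inhba, except 1 gene that is not reported here. Alternatives were the exact and likelihood ratio tests of edgeR, DESeq2 1.42.0, other filters and scalings, blocks and left-out libraries. The test code was tested on simulated data. The p-values measure the spread between libraries. In control mice the library numbers paired the regions by correlation of deviations (0.13 to 0.33). Xist, a marker of female sex, was at 412 CPM or more in both regions for control libraries 1 and 3 and cTKO libraries 3 and 5. In all other libraries it was at most 0.622 CPM.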

Additional observations from a re-analysis of the deposited data

Results flagged for a closer look

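In 3 of 40 groups of 5 libraries, 1 library lay apart from the other 4 in log2 CPM of a member, measured as its gap to the nearest library over the range of the group. For Bmp5 in cTKO neocortex, library 5 was high, with a ratio of 0.905. For Inhba in the same group, library 5 was low, with a ratio of 0.724. For Inhbb in that group, library 3 was high, with a ratio of 0.792. Chance gives such a gap in about 1 of 20 groups. Library 5 of cTKO neocortex is 1 of the 2 libraries with embryonic markers.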

How the results depend on the processing

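In the neocortex, 1 member was called, and 2 were with edgeR's exact and likelihood ratio tests and with DESeq2 (Bmp3 and Inhba). With 1 fit of all 20 libraries 0 were called, and with the library number as a replicate block 0 were called (Bmp3 FDR 0.0655). Leaving out 1 library gave 0 to 2. In the hippocampus, 2 were called with each of those 3 tests (Bmp3 and Gdf10), and 0 to 1 with 1 library left out. Of the pathway genes, 3 were called in the neocortex with each of the 3 tests (Pcolce and Tll1 among them) and 0 to 2 with 1 library left out, and 1 to 3 in the hippocampus with 1 library left out. Over all genes, the neocortex had 26 calls, and 163, 167 and 221 with the 3 tests, 12 with the block and 133 without cTKO library 5. The hippocampus had 67, and 257, 259 and 331 with the 3 tests. Whether same-numbered libraries of the 2 genotypes shared more than a number is not given in the sources used here. Their deviations correlated at -0.0091 to 0.22 in the neocortex and -0.14 to 0.14 in the hippocampus. In the neocortex 4 of 5 numbers correlated best with their own, and in the hippocampus 1 of 5 did. The block also ended the call of Acvr1 in the hippocampus (log2 fold change 0.60, FDR 0.0554). It changed no region call in control mice. In cTKO mice, where the numbers did not pair the regions in libraries 4 and 5 (correlations of -0.056 and -0.071), Inhbb was called between regions with the block (0.46, FDR 0.0216). The cause of these differences was not tested.

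The direction of some results that were not called turned with 1 library left out. In the neocortex the log2 fold change ran from -0.15 to 0.016 for Bmp1, -0.045 to 0.63 for Bmp5 and -0.19 to 0.065 for Bmp6. In the hippocampus it ran from -0.26 to 0.025 for Bmp2, -0.11 to 0.18 for Bmp4 and -0.24 to 0.012 for Inhbb. The interaction ran from -0.042 to 0.25 for Bmp2 and -0.20 to 0.81 for Inhba. Between regions, Bmp7 ran from -0.25 to 0.12 in controls, and in cTKO mice Bmp5 ran from -0.69 to 0.13, Bmp6 from -0.22 to 0.052 and Inhba from -0.85 to 0.16. No called member turned its direction in any alternative. Bmp5 rested on 17 to 89 counts per library, which limits its precision.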
